A study of Mus musculus with 10 samples.

Results

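Pax2, Pax8, Lhx1, Osr2, Foxc1, Pou3f3 and Sall1 encode transcription factors of nephron formation, and Npnt encodes nephronectin, a matrix protein of the developing kidney. These 8 genes were taken by name from the 28808 gene symbols of the count tables, and each had a row in all 10 tables. Their levels were followed by day after injury and by cell class in single-cell RNA counts of kidney cortex from mice that were 4 weeks old. The groups were normal kidneys as the control (1 library), injured kidneys at day 1, day 2 and day 4 (1 library each), and injured kidneys at day 7, day 11 and day 14 (2 libraries each). The labels give no kind of injury, strain, genotype, sex or animal, and do not say whether the paired libraries of a day came from separate animals. P-values therefore measure the spread between libraries, which may be technical. The title of the series concerns developmental genes of the kidney after injury.

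In the embryo, nephrons form from mesenchymal progenitors that condense around the tips of the ureteric bud. Pax2 and Pax8 mark the nephric lineage, Sall1, Osr2 and Foxc1 act in the mesenchyme, Lhx1 patterns the early nephron, and Pou3f3 is needed for the loop of Henle and distal tubule. Nephronectin is the ligand of the integrin formed by Itga8 and Itgb1, and that pairing is required for growth of the ureteric bud into the mesenchyme. In the mature kidney, nephronectin is also a component of the glomerular basement membrane made by podocytes.

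Of 64803 deposited barcodes, 52797 cells were kept, from 3568 to 6941 per library, with 7091848 to 31632205 deposited UMIs (unique molecular identifiers) per library. Cells were assigned to 10 classes by UMIs of 54 marker genes, none of them a member: proximal, injured tubule (Havcr1, Krt20, Sprr2f), thick limb, distal convoluted, principal, intercalated, podocyte, endothelial, stromal and leukocyte. Markers that no gate used were found where they belong, for example Umod in the thick limb gate and Foxi1 in the intercalated gate. Cells with markers of several classes, none of them dominant, made up 3.64% to 17.7% of a library and were left out. Cells with too few marker UMIs made up 1.36% to 18.5%. The median mitochondrial share was highest in the control (23.6%) and lowest on day 7 (3.64% and 4.32%). Proximal cells were 71.2% of the tubule cells in the control, 17.6% and 18.9% on day 7, and 82.7% and 82.2% on day 14. Pairs of libraries shared at most 4 barcodes.

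Levels are given as scaled CPM, the UMIs of a gene as CPM of the summed cells, after the scaling factors of edgeR's TMM method. These factors ran from 0.784 to 1.45 over the tubule sums. Without them the median gene of the tubule sums stood 0.83 higher on the log2 scale on day 7 than in the control, and with them 0.02 higher, so the results are relative to the bulk of genes. Each kind of sum (all tubule cells, proximal, distal, or by class) was scaled on its own, so levels are compared within a kind only. Counts come from 3' ends and are not compared between genes. In sums over cells, fewer expressing cells and less RNA per cell cannot be told apart.

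The members lie on 8 different chromosomes in the GENCODE M21 annotation of GRCm38. Pax2 spans chr19:44756045-44837871 on the plus strand and Pax8 spans chr2:24420560-24475599 on the minus strand. Lhx1 spans chr11:84518284-84525535 (minus), Osr2 chr15:35296098-35303305 (plus) and Foxc1 chr13:31806633-31812476 (plus). Pou3f3 spans chr1:42695768-42703176 (plus), Npnt chr3:132881745-132950291 (minus) and Sall1 chr8:89027235-89044162 (minus). Pax2, Pax8 and Npnt are overlapped on the opposite strand by noncoding genes with a row of their own, with 164 UMIs for Gm13415 at Pax8, 27 and 23 for a pair of antisense genes at Pax2 and 2 for Gm23196 at Npnt. Whether counting used the strand is not given in the sources used here, so reads of these partners cannot be told apart from those of the members. On the same strand, AC122898.1 overlaps Pou3f3 and Mir6405 overlaps Pax2, and neither has a row in the tables. RefSeq's promoter table held 12 windows for 7 of the members and none for Osr2. The 250 bases before a RefSeq transcript start are shown for Npnt and Pax2, the members that were higher on day 7 in both the tubule and the proximal sums. They are written 5′ to 3′ in gene orientation from the RefSeq table of GRCm38.p6, with CG dinucleotides in capitals. The Npnt window is chr3:132950292-132950541 on the minus strand with 21 CG dinucleotides, and the Pax2 window is chr19:44755502-44755751 on the plus strand with 20, where the median of 32851 promoters is 6. The Pax2 window ends before the gene start given above, since it belongs to a RefSeq transcript that starts further upstream. The table holds 3 windows for Pax2, with 5, 20 and 25 CG dinucleotides, and 2 for Npnt, with 21 and 23, and the windows shown are the nearest that lie wholly before the annotated gene start.
Npnt: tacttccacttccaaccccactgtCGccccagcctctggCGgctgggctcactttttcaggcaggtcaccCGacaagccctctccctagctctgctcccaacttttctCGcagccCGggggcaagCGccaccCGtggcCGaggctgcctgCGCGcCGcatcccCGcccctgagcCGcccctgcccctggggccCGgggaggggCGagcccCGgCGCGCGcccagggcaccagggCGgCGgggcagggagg
Pax2: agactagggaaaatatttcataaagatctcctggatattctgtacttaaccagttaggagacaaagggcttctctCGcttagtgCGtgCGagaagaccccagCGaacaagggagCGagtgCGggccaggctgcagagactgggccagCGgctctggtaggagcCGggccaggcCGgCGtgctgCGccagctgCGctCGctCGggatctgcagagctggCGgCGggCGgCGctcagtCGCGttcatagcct
Each window was searched on both strands for 3 motifs: the AP-1 site TGANTCA, the paired domain core GTCACGC and the POU octamer ATGCAAAT. None of the 12 member windows holds any of them. Of all promoters, 6.75% hold the first, 1.78% the second and 1.60% the third.

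The first comparison was between cell classes, in sums of at least 20 cells per library and class. It shows the segment pattern of each member pooled over all 10 libraries, of which only the control is from a normal kidney. Class levels that changed with the day are averaged in it, so it is not the pattern of the normal cortex alone. Pou3f3 was high throughout the distal nephron and collecting duct, Lhx1 in the distal convoluted tubule, Osr2 in proximal and injured tubule cells, Foxc1 in podocytes, stroma and thick limb, and Npnt in podocytes and principal cells. Each class was tested against proximal cells with edgeR's quasi-likelihood test, with the library as a block and Benjamini-Hochberg adjustment over 11905 genes. Medians by class are taken over 10 libraries, except for injured tubule (5 libraries, all from day 1 to day 7), podocytes (8) and stroma (7). Medians of injured tubule cells therefore cover other days and are not ranked among the classes, and the differences of this class from proximal cells come from the fit within libraries. The background is wide, as 34.0% (injured tubule) to 66.7% (endothelial) of all genes tested differed from proximal cells.

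**Figure D1:**
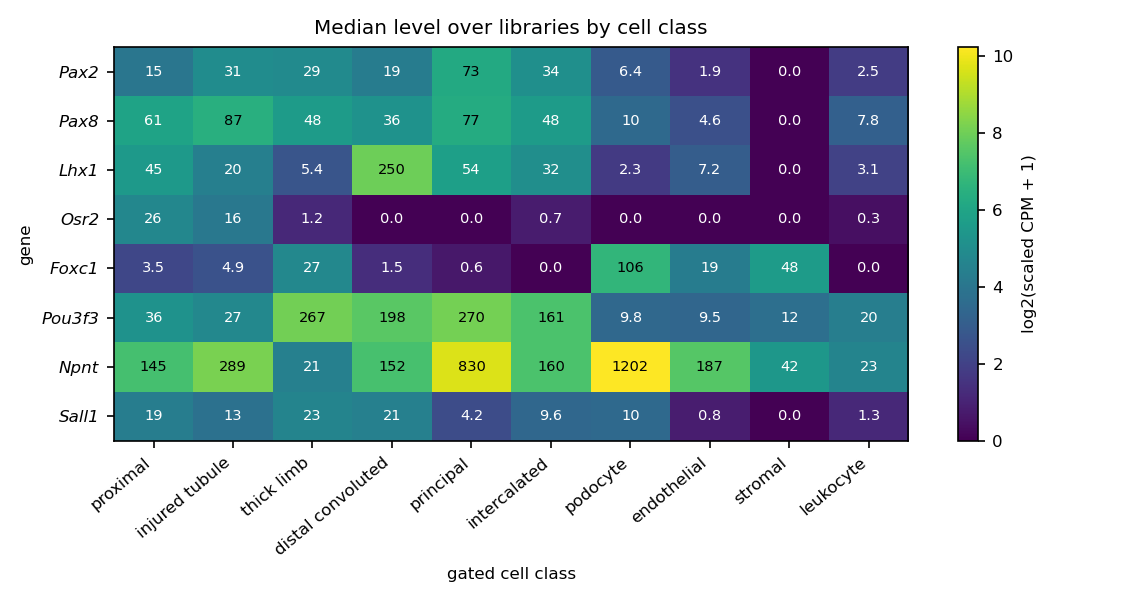
Heat map of the median scaled CPM over libraries for each member (rows) in each gated cell class (columns), with colour on a log2(scaled CPM + 1) scale and the median printed in each cell. Npnt has medians of 1202 in podocytes and 830 in principal cells, against 21.0 in the thick limb, and Pou3f3 has medians of 161 or more in the 4 distal and collecting duct classes, against 35.9 in proximal cells.

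Pax2 was highest in principal cells, with a median of 72.6 scaled CPM over 10 libraries (lowest 56.6, highest 105). Below them came intercalated cells (33.6, from 7.78 to 75.1), thick limb (28.6, from 16.9 to 58.3), distal convoluted (18.8, from 7.98 to 39.9) and proximal cells (15.3, from 7.77 to 59.6). Neighbours in this order all overlapped, while the range of principal cells lay wholly above that of distal convoluted cells. Injured tubule cells had a median of 30.8 over their 5 libraries (16.7 to 36.0) and differed from proximal cells of the same libraries by 0.02 log2 (SE 0.22, edgeR adjusted p = 0.969). Against proximal cells, Pax2 was higher by 1.98 log2 in principal cells (SE 0.20, edgeR adjusted p = 6.56e-15), by 0.90 in intercalated cells (SE 0.23, edgeR adjusted p = 0.000650) and by 0.68 in the thick limb (SE 0.19, edgeR adjusted p = 0.00170). In leukocytes, which are taken as a rough guide to free RNA because it was not measured, the median was 2.51 (0 to 11.9).

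Pax8, the paired box factor related to Pax2, was found in every tubule class. Its medians were 76.9 in principal cells (42.8 to 121), 60.7 in proximal cells (45.2 to 70.0), 48.0 in the thick limb (25.6 to 86.8), 47.7 in intercalated cells (21.3 to 73.5) and 36.4 in distal convoluted cells (9.55 to 50). Neighbours in this order all overlapped. Injured tubule cells had a median of 87.1 over 5 libraries (49.3 to 122), 0.15 log2 from proximal cells in the fit (SE 0.26, edgeR adjusted p = 0.710). Only the distal convoluted class passed the test among tubule classes, lower than proximal by 1.02 log2 (SE 0.24, edgeR adjusted p = 0.000182). Leukocytes had a median of 7.84 (0 to 30.8), and endothelial cells 4.59 (0 to 21.0).

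Lhx1 was led by the distal convoluted class, with a median of 250 scaled CPM (102 to 595). It was higher there than in proximal cells by 2.48 log2 (SE 0.17, 5.58-fold, edgeR adjusted p = 1.21e-22), and only principal (53.7, up to 146) and intercalated cells (32.1, up to 122) had a library that reached its range. Proximal cells had a median of 45.1 (22.7 to 72.6). Injured tubule cells had 20.1 over 5 libraries (17.0 to 26.3), and in the fit their difference from proximal cells did not pass (-0.55 log2, SE 0.23, edgeR adjusted p = 0.0545). The thick limb, the segment just before it along the nephron, had a median of 5.44 (1.43 to 9.47), lower than proximal by 3.11 log2 (SE 0.22, edgeR adjusted p = 4.15e-22). That is within the leukocyte range (0 to 22.8).

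Pou3f3, also called Brn1, separated the tubule into 2 levels. Medians were 270 in principal cells (162 to 466), 267 in the thick limb (211 to 361), 198 in distal convoluted cells (118 to 349) and 161 in intercalated cells (85.2 to 209), and these neighbours overlapped. Proximal cells had 35.9 (11.3 to 76.8) and injured tubule cells 26.6 (2.16 to 55.9, 5 libraries), and no library of either reached the range of the 4 distal and collecting duct classes. The difference from proximal cells was 2.77 log2 in the thick limb (SE 0.25, edgeR adjusted p = 3.15e-17), 2.75 in principal cells (SE 0.25), 2.31 in distal convoluted cells (SE 0.25) and 1.99 in intercalated cells (SE 0.26, edgeR adjusted p = 2.91e-10 for the last). The leukocyte median of 19.6 (0 to 44.0) overlaps the proximal range.

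Osr2, a zinc finger factor of the odd-skipped family, had its highest median in the proximal gate. It was also found in injured tubule cells, which are not ranked. The median was 26.0 in proximal cells (10.7 to 41.5) and 16.1 in injured tubule cells (8.22 to 38.3, 5 libraries; difference in the fit -0.93 log2, edgeR adjusted p = 0.0582), against a median of at most 1.23 in every other class. In principal cells only 8 UMIs were counted in all 10 libraries, and Osr2 was 4.57 log2 lower there than in proximal cells (SE 0.55, edgeR adjusted p = 1.49e-11). Single libraries of other classes had higher values. The highest Osr2 value of any class and library was 77.5 in the podocytes of day 7 replicate 2, from 13 UMIs in 6 barcodes with at most 4 in 1 barcode. The highest value in distal convoluted cells, 38.7 in day 11 replicate 1, came from 17 UMIs in 4 barcodes, of which 1 barcode held 14.

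Sall1, a zinc finger factor of nephron progenitors, was low and even over the thick limb (23.5, from 15.5 to 32.1), distal convoluted (21.1, from 10.3 to 29.2) and proximal cells (19.3, from 9.36 to 29.7). It was lower than proximal in principal cells by 1.85 log2 (SE 0.29, edgeR adjusted p = 4.44e-08), with a median of 4.20 (0 to 15.1) that overlaps the leukocyte range (0 to 9.98). The thick limb was higher than proximal by 0.44 (SE 0.19, edgeR adjusted p = 0.0466). That call on Sall1 was lost when the control, day 7 replicate 2, day 11 replicate 2 or either day 14 library was left out (edgeR adjusted p from 0.0581 to 0.138). No Sall1 UMI was counted in the stromal sums.

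Foxc1, a forkhead factor, was highest outside the tubule. Podocytes had a median of 106 scaled CPM (64.7 to 172, 8 libraries) and stromal cells 48.2 (21.0 to 147, 7 libraries), and these overlapped. Within the tubule the thick limb stood alone, with 26.6 (16.4 to 74.1) against 4.93 in injured tubule (2.88 to 6.34), 3.48 in proximal (1.04 to 9.93) and 1.53 in distal convoluted cells (0 to 9.10). The thick limb range overlapped none of these. Against proximal cells Foxc1 was higher by 4.91 log2 in podocytes (SE 0.27, edgeR adjusted p = 5.07e-28), 4.20 in stroma (SE 0.34), 3.21 in the thick limb (SE 0.23) and 2.40 in endothelial cells (SE 0.29, edgeR adjusted p = 9.01e-12).

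Npnt had its highest levels in podocytes and in principal cells of the collecting duct. Podocytes had a median of 1202 scaled CPM (707 to 1643) and principal cells 830 (523 to 1107), which overlapped. Then came endothelial (187, from 38.2 to 394), intercalated (160, from 46.7 to 413), distal convoluted (152, from 65.7 to 225) and proximal cells (145, from 60.9 to 362). The thick limb had the lowest median, 21.0 (2.93 to 76.5), and the leukocyte median was 23.5 (0 to 101). Injured tubule cells had 289 over 5 libraries (154 to 648). Npnt was higher than in proximal cells by 3.19 log2 in podocytes (SE 0.25, 9.14-fold, edgeR adjusted p = 1.01e-19) and by 2.70 in principal cells (SE 0.24, 6.51-fold, edgeR adjusted p = 9.63e-18), and lower by 2.83 in the thick limb (SE 0.26, edgeR adjusted p = 5.07e-17).

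Counted by class, 4 members were higher and 3 lower in the thick limb than in proximal cells (56.6% of all genes tested differed, 27.2% higher and 29.4% lower), and 4 were higher and 3 lower in principal cells (57.2%, 26.5% and 30.8%). Distal convoluted cells had 2 higher and 2 lower (52.4%, 24.0% and 28.3%), and intercalated cells 2 higher and 2 lower (51.5%, 23.5% and 28.0%). Podocytes had 2 higher and 3 lower (46.9%, 16.4% and 30.5%), endothelial cells 1 higher and 6 lower (66.7%, 32.1% and 34.6%), stromal cells 1 higher and 6 lower (49.9%, 19.8% and 30.1%) and leukocytes 0 higher and 7 lower (65.7%, 30.5% and 35.2%). The members' medians in the order of these classes, thick limb, distal convoluted, principal, intercalated, podocyte, endothelial, stromal and leukocyte, were 0.09, 0.07, 0.45, -0.24, -0.90, -2.72, -2.69 and -2.36 log2, against -0.04, -0.08, -0.06, -0.05, -0.29, -0.01, -0.27 and -0.04 over all genes. With library totals instead of TMM the split was 5 higher and 2 lower in principal cells, 3 and 1 in intercalated cells, 3 and 1 in podocytes and 2 and 6 in endothelial cells. The shares of all genes under that setting are not given here, so these splits are not read as results about the members. In injured tubule cells 1 member was called (34.0% of all genes, 15.9% higher and 18.1% lower), and the medians were -0.24 over the members and -0.05 over all genes. It was Npnt, 0.66 log2 higher than in proximal cells (SE 0.27, edgeR adjusted p = 0.0494). That call was lost without the control, day 4, day 14 replicate 1, day 11 replicate 1 or either day 7 library (edgeR adjusted p from 0.0551 to 0.157), and the other 7 members had differences from -0.93 to 0.36.

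Several smaller class differences depended in the same way on 1 library. In principal cells Lhx1 was 0.42 log2 higher (edgeR adjusted p = 0.0419) and Foxc1 1.16 lower (edgeR adjusted p = 0.0261) than in proximal cells. Leaving out the control, day 7 replicate 2 or either day 14 library ended both calls, as did day 4 or either day 11 library for Lhx1 and day 2 for Foxc1 (edgeR adjusted p up to 0.189 and 0.120). Foxc1 in intercalated cells (1.40 log2 lower, edgeR adjusted p = 0.0418) lost its call without day 2 or any library of days 7, 11 and 14 (edgeR adjusted p from 0.0533 to 0.109). In podocytes Osr2 (-1.37, edgeR adjusted p = 0.0478) kept its call in 1 of 10 such fits. That was the fit without day 7 replicate 2, where it was -4.13 (edgeR adjusted p = 0.000119), and the others gave values from -1.38 to -0.89 (edgeR adjusted p up to 0.164). Pax8 in podocytes (-0.99, edgeR adjusted p = 0.0221) lost it without the control, day 1, day 2, day 14 replicate 1 or either day 11 library (up to 0.138). Pax2 in stroma (-2.29, edgeR adjusted p = 0.00237) lost it without day 2 (-1.66, edgeR adjusted p = 0.0544).

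The second comparison followed the members in all tubule cells together, which asks how their level in the epithelium differed on day 7, day 11 and day 14 from the control and between those days. On day 7, Npnt, Pax2 and Pax8 were higher and Lhx1 was lower than in the control. On day 14, Lhx1 and Osr2 were higher and Npnt, Pax2 and Foxc1 were lower than on day 7, and Osr2 was also above the control. In proximal cells alone, the Osr2 difference between day 14 and day 7 had the other sign and did not pass (-0.35 log2, SE 0.26, edgeR adjusted p = 0.389). The tests used edgeR's quasi-likelihood F test on 16022 genes with all 10 libraries in the fit. The lone control was assumed to vary like the replicated days, and days 1, 2 and 4 entered no comparison. Here and later, libraries of some days are said to lie above or below those of others. The share of all genes with the same order is not given, so such an order is a description only.

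**Figure D2:**
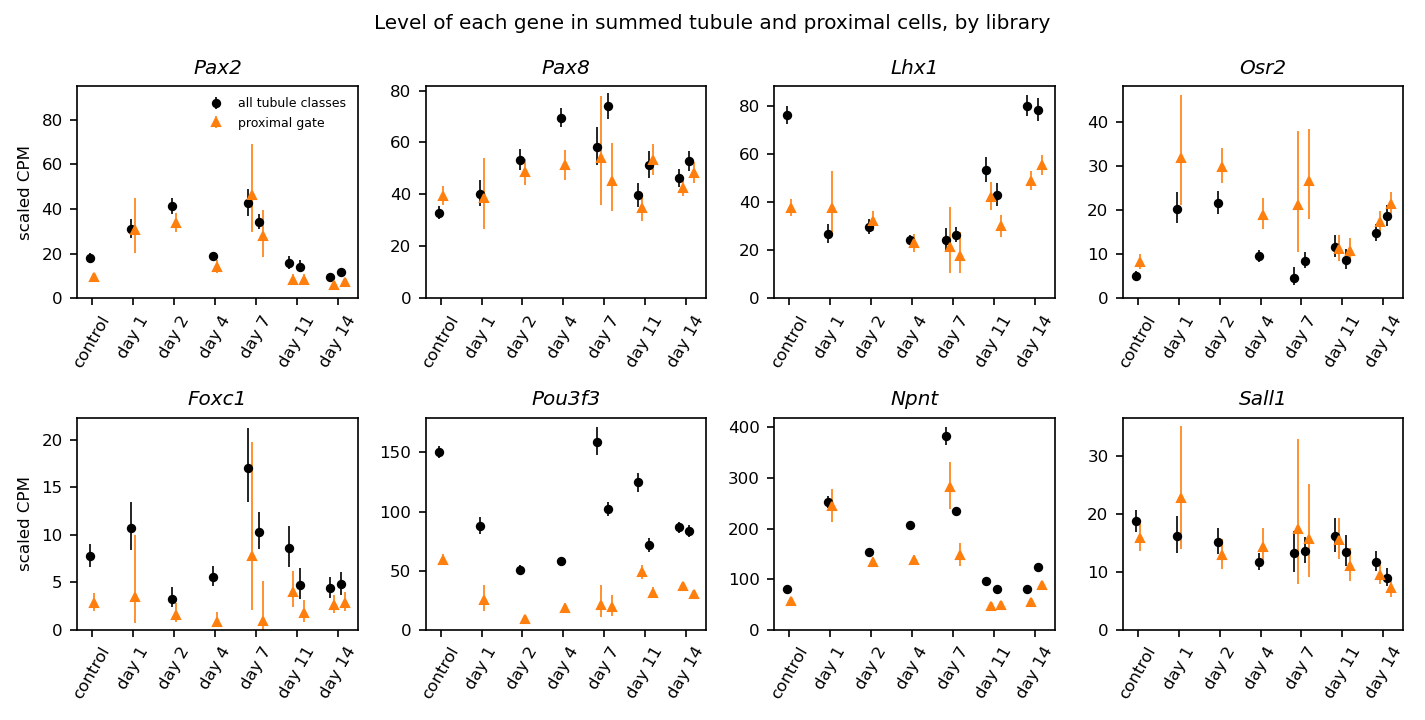
Scaled CPM (vertical axes) of the 8 members, 1 panel each, in the summed tubule cells (black circles) and the summed proximal cells (orange triangles) of each library, by day. Error bars are exact Poisson 95% intervals, which cover counting error only. In tubule cells Lhx1 is at 76.1 in the control, between 24.1 and 29.6 from day 1 to day 7, and at 80.1 and 78.5 on day 14, and Npnt is above 150 in the libraries from day 1 to day 7 and at most 125 in the others.

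Npnt was measured at 81.2 scaled CPM in the control (exact Poisson 95% interval 77.4 to 85.2), and on days 1, 2 and 4 it stood at 253 (241 to 265), 153 (146 to 160) and 206 (200 to 213). The day 7 libraries had 383 and 234, those of day 11 had 97.4 and 80.6, and those of day 14 had 81.5 and 125. All 5 libraries from day 1 to day 7 were higher than the other 5. The mean was 309 ± 105 for day 7, with 89.0 ± 11.9 for day 11 and 103 ± 30.4 for day 14 (SD, n = 2 libraries). Day 7 was higher than the control by 1.92 log2 (SE 0.35, 3.79-fold, edgeR adjusted p = 0.00132). Day 11 and day 14 were lower than day 7 by 1.79 (SE 0.27, edgeR adjusted p = 0.000272) and 1.58 (SE 0.27, edgeR adjusted p = 0.000510). These 3 calls on Npnt held in each leave-one-out fit. Principal cells, in which Npnt is high, were 3.52% of tubule cells in the control and 11.8% and 17.6% on day 7. Their part in the tubule result was not tested beyond the class values given next.

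Within classes, Npnt stood higher from day 1 to day 7 in some gates and not in others. In proximal cells (class scaling) it was 72.7 in the control, 318, 174 and 178 on days 1, 2 and 4, 362 and 191 on day 7, and between 60.9 and 117 on days 11 and 14. In intercalated cells it was 78.3 in the control, 238, 279 and 312 on days 1, 2 and 4, 413 and 343 on day 7, and between 46.7 and 82.7 on days 11 and 14. In both gates the 5 libraries from day 1 to day 7 lay above the other 5. Injured tubule cells, which reached 20 cells on these days only, had 376, 154 and 244 on days 1, 2 and 4 and 648 and 289 on day 7. In principal cells no such order was seen: 982 in the control, 692, 523 and 914 on days 1, 2 and 4, 1107 and 737 in the day 7 pair, 908 and 765 in the day 11 pair, and 704 and 896 in the day 14 pair. Leukocytes also had more Npnt on most of those days, with 88.0, 15.9 and 46.1 on days 1, 2 and 4 and 101 and 65.9 on day 7, against 0 in the control, where a count of 0 allows up to 30.0. This leukocyte level is taken here as a background for the proximal and intercalated values, although free RNA was not measured. Its source and its part in those values were not tested.

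**Figure D3:**
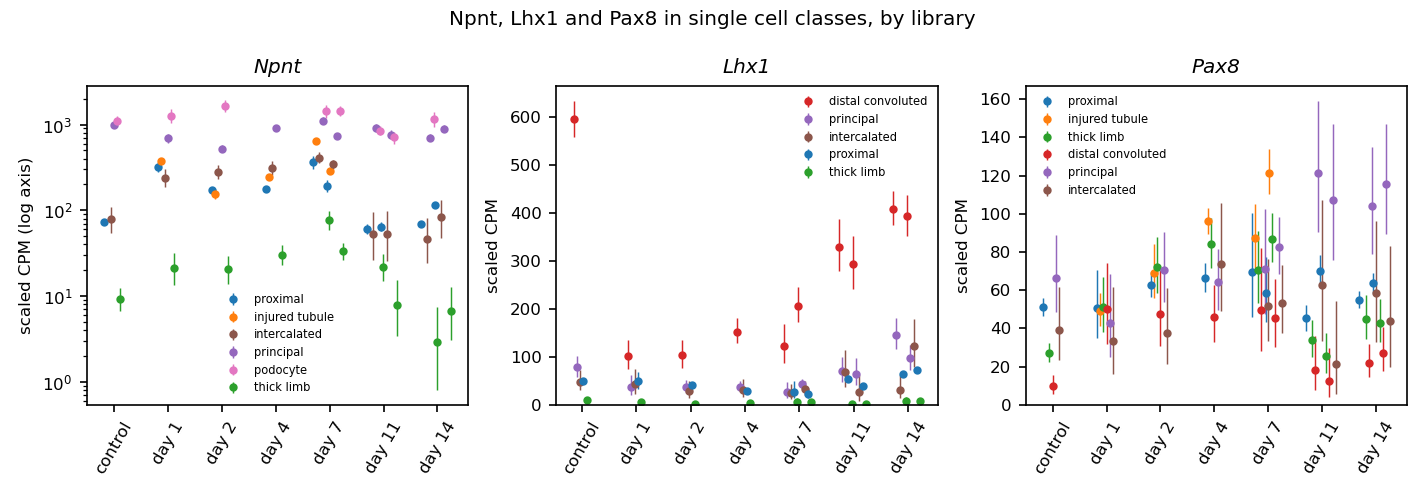
Scaled CPM (vertical axes, a log axis for Npnt) of Npnt, Lhx1 and Pax8 by day in single cell classes, shown by colour. Each point is a library with at least 20 cells of the class, with its exact Poisson 95% interval. Npnt in intercalated cells runs from 238 to 413 on days 1 to 7 against at most 82.7 in the other libraries, and Lhx1 in distal convoluted cells is 595 in the control and between 102 and 206 on days 1 to 7.

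Pax2 was at 18.2 in the control (16.4 to 20.1), and on days 1, 2 and 4 it stood at 31.1 (27.0 to 35.7), 41.1 (37.6 to 44.8) and 18.7 (16.9 to 20.7). The day 7 libraries had 42.5 and 34.2, those of day 11 had 15.9 and 14.1, and those of day 14 had 9.56 and 11.7. Days 1, 2 and 7 were above every other library, and day 14 was below all others. Day 7 was 1.06 log2 above the control (SE 0.24, 2.09-fold, edgeR adjusted p = 0.00540). Day 11 was 1.34 below day 7 (SE 0.20, edgeR adjusted p = 0.000297) and day 14 was 1.84 below it (SE 0.20, 3.59-fold, edgeR adjusted p = 2.25e-05). The 3 Pax2 calls held in each leave-one-out fit. Day 14 was also 0.78 below the control, which did not pass (SE 0.23, edgeR adjusted p = 0.0614). In the thick limb gate Pax2 was 29.7 in the control, 48.3 and 51.4 on days 1 and 2, 58.3 and 47.1 on day 7, and from 16.9 to 27.6 on days 4, 11 and 14. Days 1, 2 and 7 were again the highest, while in principal cells the highest libraries were day 2 (105) and the control (96.9). Principal cells, where Pax2 is highest, were 3.52% of tubule cells in the control and 11.8% and 17.6% on day 7. On day 14 they were 2.80% and 3.69%. The part of this share in the Pax2 tubule differences was not tested.

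Pax8 was at 33.0 in the control (30.5 to 35.5), and on days 1, 2 and 4 it stood at 40.3, 53.4 and 69.5 (65.9 to 73.2). The day 7 libraries had 58.3 and 74.0, those of day 11 had 39.6 and 51.4, and those of day 14 had 46.2 and 52.9. The control was the lowest library of all. Day 7 was higher by 1.01 log2 (SE 0.24, 2.02-fold, edgeR adjusted p = 0.00714). Day 11 was 0.55 lower than day 7 (SE 0.19, edgeR adjusted p = 0.0399), a call that was lost without day 7 replicate 2 (-0.36, edgeR adjusted p = 0.204), day 11 replicate 1 (-0.37, 0.256) or either day 14 library (0.0608 and 0.0611).

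By class, the Pax8 values are given with no test of the days. In the thick limb it was 26.9 in the control, 51.2, 72.1 and 84.0 on days 1, 2 and 4, 70.5 and 86.8 in the day 7 pair, 33.7 and 25.6 in the day 11 pair, and 44.7 and 43.0 in the day 14 pair. In distal convoluted cells it was 9.55 in the control, between 45.4 and 50 in the 5 libraries from day 1 to day 7, and between 12.6 and 27.4 afterwards. In both, the libraries of days 1 to 7 were above all others. In principal cells the highest libraries were instead those of days 11 and 14, from 104 to 121, against 42.8 to 82.4 in the other 6. Injured tubule cells were 0.0393% of tubule cells in the control and 38.0% and 28.6% on day 7. Principal cells were 3.52%, then 11.8% and 17.6%. The part of these shares in the Pax8 tubule difference was not tested.

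Lhx1, the LIM homeobox factor, was lower on day 7. It was at 76.1 in the control (72.4 to 79.9), and on days 1, 2 and 4 it stood at 26.8 (23.0 to 31.0), 29.6 (26.7 to 32.8) and 24.3 (22.2 to 26.5). The day 7 libraries had 24.1 and 26.4, those of day 11 had 53.5 and 43.0, and those of day 14 had 80.1 and 78.5. Day 7 was lower than the control by 1.58 log2 (SE 0.20, edgeR adjusted p = 0.000128). Day 14 was higher than day 7 by 1.64 (SE 0.18, edgeR adjusted p = 2.08e-05) and differed from the control by 0.06 (SE 0.20, edgeR adjusted p = 0.889). Day 11 lay between, 0.93 above day 7 (SE 0.18, edgeR adjusted p = 0.00156) and 0.66 below the control (SE 0.20, edgeR adjusted p = 0.0435). With library totals instead of TMM the difference of day 11 from day 7 was 0.14 (edgeR adjusted p = 0.505). The difference from the control lost its call without either day 11 library (-0.83, edgeR adjusted p = 0.0528, and -0.51, 0.227) or either day 14 library (0.0922 and 0.0930).

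By class, the course of Lhx1 was followed in distal convoluted cells, where it is highest. There it was 595 in the control, 102, 103 and 153 on days 1, 2 and 4, 123 and 206 in the day 7 pair, 330 and 293 in the day 11 pair, and 409 and 393 in the day 14 pair. No library of days 1 to 7 reached the lowest of the others. Principal cells had 78.1 in the control, 27.1 to 42.6 from day 1 to day 7, then 70.0 and 64.9 in the day 11 pair and 146 and 96.7 in the day 14 pair, with the same separation. Intercalated cells did not have it: before scaling, day 14 replicate 1 had 8 Lhx1 UMIs of 296980, and day 1 had 13 of 294296. Distal convoluted cells were 7.55% of tubule cells in the control, 4.99% and 6.93% on day 7, and 6.30% and 5.21% on day 14. The part of this share in the Lhx1 tubule differences was not tested.

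Osr2 was at 5.12 in the control (4.19 to 6.19), and on days 1, 2 and 4 it stood at 20.3 (17.0 to 24.0), 21.6 (19.1 to 24.4) and 9.54 (8.24 to 11). The day 7 libraries had 4.69 and 8.57, those of day 11 had 11.6 and 8.73, and those of day 14 had 14.8 and 18.7. Day 14 was higher than the control by 1.71 log2 (SE 0.33, 3.26-fold, edgeR adjusted p = 0.0141), a call on Osr2 that was lost without day 14 replicate 2 (1.52, edgeR adjusted p = 0.0732). It was higher than day 7 by 1.25 (SE 0.28, edgeR adjusted p = 0.00322), and by 0.41 with library totals (edgeR adjusted p = 0.205). Day 7 did not pass against the control (0.46, SE 0.35, edgeR adjusted p = 0.329). That Osr2 difference was -0.12 without day 7 replicate 2 and 0.75 without replicate 1, and with library totals it was 1.26 and passed (edgeR adjusted p = 0.0111). Outside the proximal and injured gates the median of Osr2 was at most 1.23 in any class, and in day 11 replicate 1 the distal sum held 32 Osr2 UMIs. Proximal cells were 17.6% and 18.9% of tubule cells on day 7 and 82.7% and 82.2% on day 14. Within proximal cells Osr2 was at 21.2 and 26.8 on day 7 and at 17.4 and 21.4 on day 14, ranges that overlapped. The tubule rise from day 7 to day 14 was not seen within that class. The higher level of day 14 than of the control was seen there (1.22 log2, SE 0.25, edgeR adjusted p = 0.0142). The part of the proximal share in the tubule differences was not tested.

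Foxc1 was at 7.72 in the control, 10.7, 3.29 and 5.54 on days 1, 2 and 4, 17.0 and 10.3 in the day 7 pair, 8.59 and 4.70 in the day 11 pair, and 4.36 and 4.77 in the day 14 pair. Day 7 did not pass against the control (0.78, SE 0.38, edgeR adjusted p = 0.135). Day 14 was 1.54 log2 below day 7 (SE 0.33, 2.90-fold, edgeR adjusted p = 0.00246) and day 11 was 0.99 below it (SE 0.33, edgeR adjusted p = 0.0311). The day 11 call was lost without day 7 replicate 1 (-0.64, edgeR adjusted p = 0.199) or day 11 replicate 2 (-0.62, 0.225). In the thick limb gate alone, Foxc1 was 74.1 and 43.4 on day 7 and 24.2 and 24.5 on day 14. Thick limb cells, the main tubule class with Foxc1, were 16.7% and 18.7% of tubule cells on day 7 and 6.35% and 7.22% on day 14, and this share was not tested as a source of the tubule difference.

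Pou3f3 and Sall1 had few calls in the tubule sums. Pou3f3 was at 150 in the control, 88.0, 50.7 and 57.9 on days 1, 2 and 4, 159 and 102 in the day 7 pair, 125 and 71.6 in the day 11 pair, and 86.5 and 83.5 in the day 14 pair. None of its 5 tubule comparisons passed, and the day 7 difference from the control was -0.21 log2 (SE 0.32, edgeR adjusted p = 0.644). Its sign turned to 0.61 with library totals (edgeR adjusted p = 0.153) and to 0.08 without day 7 replicate 2. Sall1 ranged from 8.97 to 18.8 over the 10 libraries, with the control highest. It was 0.86 below the control on day 14 (SE 0.24, edgeR adjusted p = 0.0481), and that call on Sall1 was lost without day 2, either day 11 library or either day 14 library (edgeR adjusted p from 0.0503 to 0.276).

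Counted over the members, day 7 against the control had 3 higher and 1 lower of 8, where 35.3% of all genes tested were called (16.8% higher and 18.6% lower). The members' median difference was 0.62 log2, against 0.02 over all genes. Day 11 against the control had 0 higher and 1 lower (18.4% of all genes, 9.18% higher and 9.22% lower), with a median of -0.25 against 0.10. Day 14 against the control had 1 higher and 1 lower (8.16%, 4.58% higher and 3.58% lower), with a median of -0.35 against 0.06. Day 11 against day 7 had 1 higher and 4 lower (43.4%, 22.8% higher and 20.6% lower), with a median of -0.48 against -0.05 over all genes. Day 14 against day 7 had 2 higher and 3 lower (45.2%, 24.0% higher and 21.3% lower), with a median of -0.52 against -0.02. With library totals instead of TMM the splits were 5 higher and 1 lower for day 7 against the control, 0 and 6 for day 11 against day 7, and 1 and 6 for day 14 against day 7. In that setting the median gene also stood higher on day 7 than in the control, as given above. The splits are therefore not read as results about the members. Comparisons share the control or the day 7 libraries and are not independent.

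**Figure D4:**
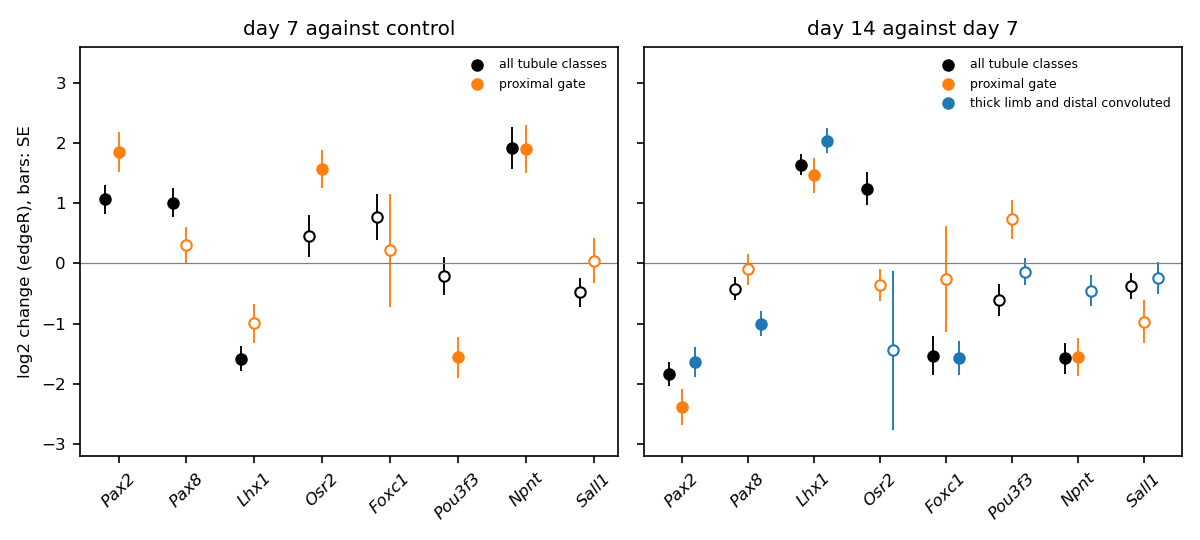
Log2 difference (vertical axis) of each member on day 7 against the control (left, tubule and proximal sums) and on day 14 against day 7 (right, tubule, proximal and distal sums). Points are edgeR estimates, bars are ± SE, and points are filled where the adjusted p is under 0.05. On the left Npnt is at 1.92 in tubule and 1.90 in proximal cells, and on the right Lhx1 in distal cells is at 2.04.

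The third comparison held the class fixed only as far as the gate does. Cells with injured tubule markers were gated before proximal ones, and the proximal sums leave them out. The injured gate held 2 cells in the control, 441 and 495 on day 7, and 0 and 5 on day 14. The part of this selection in the proximal differences was not tested. Proximal cells alone were summed, from 204 and 328 cells on day 7 to 5058 and 4542 on day 14, and 14422 genes were tested with edgeR. On day 7 against the control, Npnt, Pax2 and Osr2 were higher and Pou3f3 was lower, with 17.8% of all genes called (8.72% higher and 9.06% lower) and a median of 0.26 over the members and -0.04 over all genes. Npnt was at 56.0 in the control (51.9 to 60.3), 282 and 148 in the day 7 pair, 47.0 and 48.9 in the day 11 pair, and 53.9 and 88.9 in the day 14 pair. Day 7 was 1.90 log2 above the control (SE 0.40, 3.74-fold, edgeR adjusted p = 0.00741) and both day 7 libraries were above the other replicated ones. Pax2 was at 9.59 in the control (7.93 to 11.5), 46.3 and 27.7 in the day 7 pair from only 24 and 30 UMIs, 8.16 and 8.24 in the day 11 pair, and 6.02 and 7.29 in the day 14 pair. It was 1.86 log2 higher on day 7 than in the control (SE 0.33, 3.62-fold, edgeR adjusted p = 0.00319) and 2.39 lower on day 14 than on day 7 (SE 0.30, 5.22-fold, edgeR adjusted p = 0.000345).

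Osr2 in proximal cells was at 8.28 in the control (6.74 to 10.1), and on days 1, 2 and 4 it stood at 31.9 (21.2 to 46.1), 29.9 (26.1 to 34.1) and 19.0 (15.7 to 22.7). The day 7 libraries had 21.2 and 26.8, those of day 11 had 11.1 and 10.6, and those of day 14 had 17.4 and 21.4. The control was the lowest of the 10 libraries. Day 7 was 1.58 log2 above it (SE 0.32, 2.98-fold, edgeR adjusted p = 0.00609) and day 14 was 1.22 above it (SE 0.25, 2.34-fold, edgeR adjusted p = 0.0142). These calls on Osr2 were lost without day 7 replicate 2 (1.36, edgeR adjusted p = 0.0682) and without day 14 replicate 2 (1.07, 0.0990). On day 14 it was the only member called in proximal cells (8.66% of all genes, 3.86% higher and 4.81% lower), and the members' median was 0.08 against 0.02 over all genes. Day 14 differed from day 7 by -0.35 (SE 0.26, edgeR adjusted p = 0.389), which did not pass. Day 11 was 1.18 below day 7 (SE 0.29, edgeR adjusted p = 0.0131), lost without day 7 replicate 2 (-0.97, 0.154) or day 11 replicate 2 (-1.15, 0.0703).

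Pou3f3 in proximal cells was at 59.2 in the control (54.9 to 63.7), and on days 1, 2 and 4 it stood at 25.1, 8.74 and 18.7. It was 21.2 and 19.4 in the day 7 pair from 11 and 21 UMIs, 48.6 and 31.1 in the day 11 pair, and 36.8 and 29.8 in the day 14 pair. The control was the highest library. Day 7 was 1.56 log2 below it (SE 0.35, 2.95-fold, edgeR adjusted p = 0.00970). The Pou3f3 call was lost without day 7 replicate 2 (-1.48, edgeR adjusted p = 0.0745) and with library totals (-0.82, 0.106), and on the class scale the proximal level from day 1 to day 7 (11.3 to 32.6) overlapped that of leukocytes on the same days (4.55 to 44.0).

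Lhx1 in proximal cells was at 37.6 in the control (34.3 to 41.2), and on days 1, 2 and 4 it stood at 37.6 (25.9 to 52.8, from 33 UMIs), 32.0 (28.1 to 36.3) and 22.8 (19.2 to 26.9). The day 1 value was thus close to the control, while in the tubule sum and in distal convoluted cells, each scaled on its own, day 1 was lower. The proximal sum of day 1 held 380 cells, and 741 cells went to the injured gate. Before scaling, the injured gate held 62 Lhx1 UMIs of 2673086, and the proximal gate 33 of 732475. The part of this selection in the day 1 value was not tested. Lhx1 in proximal cells was 21.2 and 17.5 in the day 7 pair, 42.2 and 29.9 in the day 11 pair, and 48.9 and 55.3 in the day 14 pair. Day 7 did not pass against the control (-1.0, SE 0.33, edgeR adjusted p = 0.0553). Day 14 was 1.46 log2 above day 7 (SE 0.29, edgeR adjusted p = 0.00601), lost without day 7 replicate 2 (1.29, edgeR adjusted p = 0.0613) and with library totals (0.87, 0.0579). Pax8 in proximal cells was at 39.4 in the control, 54.0 and 45.2 on day 7 and 42.7 and 48.4 on day 14, and its day 7 difference was 0.30 (SE 0.30, edgeR adjusted p = 0.527). Foxc1 had at most 34 UMIs in any proximal sum, and Sall1 differed from the control by 0.04 on day 7 (SE 0.37) and by -0.93 on day 14 (SE 0.27, edgeR adjusted p = 0.0558).

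In proximal cells, day 11 against day 7 had 2 higher (Lhx1, Pou3f3) and 3 lower members (Npnt, Osr2, Pax2), where 22.0% of all genes were called (12.4% higher and 9.65% lower) and the medians were -0.26 over the members and -0.02 over all genes. Day 14 against day 7 had 1 higher (Lhx1) and 2 lower (Npnt, Pax2), where 18.6% were called (10.1% higher and 8.42% lower) and the medians were -0.31 and 0.04. Npnt and Pax2 fell by 2.13 (SE 0.32, edgeR adjusted p = 0.00124) and 2.08 log2 (SE 0.31, edgeR adjusted p = 0.00109) on day 11 from day 7, in every leave-one-out fit. The rises of Lhx1 (0.93, edgeR adjusted p = 0.0462) and Pou3f3 (0.99, edgeR adjusted p = 0.0497) on day 11 were lost in 5 and 8 of 10 such fits, with lowest values of 0.66 and 0.63 (both without day 11 replicate 1). Both were also lost with library totals (0.30 and 0.36, edgeR adjusted p = 0.504 and 0.447). The Npnt fall on day 14 (-1.55, SE 0.31, edgeR adjusted p = 0.00623) was lost without day 14 replicate 1 (-1.25, edgeR adjusted p = 0.0513). With library totals the split was 0 higher and 3 lower on day 11 and 0 and 4 on day 14 against day 7, and 4 and 0 on day 7 against the control. No share of all genes is given for that setting, so these counts are not read as results about the members.

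In single proximal cells thinned to 1000 UMIs, a Npnt UMI was found in 4.82% of control cells, 27.9% and 13.8% of day 7 cells and 4.59% and 8.0% of day 14 cells. The thinning left out 156 control cells, 64 and 46 day 7 cells and 462 and 380 day 14 cells. Without thinning the shares were 14.6%, 41.2% and 29.6%, and 12.1% and 18.6%, at median depths of 2652, 1378, 1846, 2034 and 2002 UMIs. In leukocytes thinned alike, Npnt was found in 7.13% and 3.66% of day 7 cells (10.4% and 6.84% without thinning, at median depths of 1208.5 and 1596 UMIs), below the proximal shares of the same libraries. The part of this background in the proximal shares was not tested.

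The distal sums joined thick limb and distal convoluted cells, and 12568 genes were tested with edgeR. On day 14 against day 7, Lhx1 was higher and Pax2, Foxc1 and Pax8 were lower, with 27.3% of all genes called (15.7% higher and 11.6% lower) and a median of -0.73 over the members and -0.01 over all genes. Lhx1 was at 149 in the control (140 to 159), 33.5 and 44.4 in the day 7 pair, 70.7 and 77.4 in the day 11 pair, and 182 and 146 in the day 14 pair. The day 14 difference from day 7 was 2.04 log2 (SE 0.21, 4.11-fold, edgeR adjusted p = 1.21e-06). Distal convoluted cells were 34.0% of the distal cells in the control, 23.0% and 27.0% on day 7, and 49.8% and 41.9% on day 14. Within that gate the Lhx1 level was 595 in the control, 123 and 206 on day 7, and 409 and 393 on day 14. The part of these shares in the distal Lhx1 levels was not tested.

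Pax2 in the distal sums was at 24.4 in the control (20.9 to 28.4), 47.9 and 38.0 on day 7, and 13.0 and 14 on day 14, a fall of 1.64 log2 from day 7 (SE 0.25, 3.11-fold, edgeR adjusted p = 9.21e-05). Foxc1 was at 17.8 in the control, 49.4 and 30.2 on day 7, and 12.0 and 13.6 on day 14, and fell by 1.58 (SE 0.28, 2.99-fold, edgeR adjusted p = 0.000448). Its class median over all libraries was 26.6 in the thick limb and 1.53 in distal convoluted cells (class scaling). Pax8 was at 19.8 in the control (16.6 to 23.4), 46.4, 59.9 and 65.2 on days 1, 2 and 4, 58.2 and 69.5 on day 7, and 31.0 and 33.7 on day 14, and fell by 1.0 (SE 0.21, edgeR adjusted p = 0.00179). The 2 day 14 libraries lay below both day 7 libraries for all 3 genes. These genes were picked by the test, and the share of all genes with that order is not given. Their calls held in each leave-one-out fit. Distal convoluted cells were 23.0% and 27.0% of the distal cells on day 7, and 49.8% and 41.9% on day 14. The part of this shift in the 3 falls was not tested. Npnt did not pass (-0.45, SE 0.26, edgeR adjusted p = 0.223), as did Pou3f3, Sall1 and Osr2. With library totals the split was 1 higher and 6 lower, which is not read as a result about the members, as no share of all genes is given for that setting. On day 14 against the control no member was called by edgeR in distal cells (3.63% of all genes, 1.92% higher and 1.71% lower). Of the 8 members, 3 had an unadjusted p under 0.05 by edgeR. DESeq2 called 0 of them and 113 of 12568 genes. The medians were -0.07 over the members and 0.06 over all genes.

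Whether the day 14 difference from day 7 was the same in proximal and distal cells was tested as an interaction over 13894 genes, with the library as a block. For Npnt the difference was -1.55 in proximal and -0.45 in distal cells in their own fits, and the interaction was -1.0 log2 (SE 0.23, edgeR adjusted p = 0.00196). The distal sum joins 2 classes whose shares shifted as given above for Lhx1, and the part of that shift in the interaction was not tested. Within the thick limb gate Npnt was 76.5 and 33.3 on day 7 against 2.93 and 6.67 on day 14, and within the distal convoluted gate 223 and 186 against 129 and 150 (class scaling). In both gates each day 14 library lay below both day 7 libraries. On day 7 each thick limb value also lay below the leukocyte value of the same library (0 to 101 over all libraries). The part of that background level in the thick limb difference was not tested. For Pax8 the day 14 difference from day 7 was -0.10 in proximal and -1.0 in distal cells, and the interaction was 1.03 (SE 0.28, edgeR adjusted p = 0.00904). These were the 2 members called, where 11.5% of all genes were (6.23% higher and 5.23% lower), and the median interaction was 0.22 over the members and 0.15 over all genes. The Npnt call held in each leave-one-out fit, from -1.48 to -0.79. Pou3f3 was next, with 0.87 (SE 0.30, edgeR adjusted p = 0.0510). The Pax8 call was lost without day 7 replicate 2 (0.68, edgeR adjusted p = 0.340) or either day 14 library (0.93 and 0.89, edgeR adjusted p = 0.0578 and 0.0686), and DESeq2 called neither gene (adjusted p = 0.119 for Npnt and 0.477 for Pax8).

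Other genes of nephron development were read as a list of 50, of which 38 were tested in the tubule sums. On day 7 against the control 8 were higher and 6 lower, where 16.8% of all genes were higher and 18.6% lower. By edgeR with Benjamini-Hochberg adjustment, the largest rises among the genes called were those of Wnt4, the signal that starts nephron epithelium (3.89 log2, SE 0.86, from 4 UMIs in the control), Myc (3.24, SE 0.38), Hoxa11 (2.50, SE 0.67, from 7 UMIs in the control) and Grip1 (1.93, SE 0.46). The largest falls among those called were those of Hnf4a, a factor of proximal identity (-2.02, SE 0.22), Fgf9 (-1.25, SE 0.23) and Bmp7 (-1.25, SE 0.27). The tubule sums mix classes, and proximal cells were 71.2% of tubule cells in the control and 17.6% and 18.9% on day 7. The part of this shift in the list's differences was not tested. Day 11 against the control had 2 higher, among them Myc (2.45), and 5 lower, led by Sim1 (-1.67) and Irx2 (-1.35), where 9.18% and 9.22% of all genes were. Day 14 against the control had 1 higher and 7 lower, led by Cdh6 (-2.24, with 4 and 6 UMIs on day 14) and Sim2 (-1.56), where 4.58% and 3.58% were.

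Between days, 4 of the 38 genes were higher and 16 lower on day 11 than on day 7, where 22.8% and 20.6% of all genes were. On day 14, 7 were higher and 19 lower than on day 7, where 24.0% and 21.3% of all genes were. On day 14 the rises included those of Hnf4a (2.31, SE 0.20), Itga8 (1.72, SE 0.51) and Bmp7 (1.71, SE 0.23). The largest falls among those called were those of Wnt4 (-3.83, SE 0.70), Cdh6 (-3.69, SE 0.45), Wnt7b (-2.46, SE 0.47) and Frem1 (-2.21, SE 0.41). On day 14 only 5 and 1 UMIs of Wnt4, 4 and 6 of Cdh6 and 9 and 10 of Frem1 were counted. Proximal cells were 17.6% and 18.9% of tubule cells on day 7 and 82.7% and 82.2% on day 14. Principal cells were 11.8% and 17.6% and then 2.80% and 3.69%. The part of these shares in the list's differences was not tested. The list's medians were 0.24, -0.30, -0.33, -0.72 and -0.72 log2 for day 7, 11 and 14 against the control and day 11 and 14 against day 7, against 0.02, 0.10, 0.06, -0.05 and -0.02 over all genes. Of the receptor subunits of Npnt, Itgb1 was lower on day 14 than on day 7 (-0.73, SE 0.17, edgeR adjusted p = 0.00443), and Itga8 did not pass on day 7 against the control (-1.46, SE 0.58, edgeR adjusted p = 0.0695). In proximal cells 4 of 36 tested genes of the list were higher and 2 lower on day 7 than in the control, with a median of 0.11, where 8.72% and 9.06% of all genes were. In distal cells 4 of 32 were higher and 8 lower on day 14 than on day 7, with a median of -0.46, where 15.7% and 11.6% of all genes were.

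Genes with the most similar pattern were found by Pearson's r of log2(CPM + 10) over 81 library-by-class sums and 13428 genes, as a description, since sums of 1 library share its depth and those of 1 class its markers. Pax2 was most like Cgn (0.90), Celsr2 (0.89) and Emx2 (0.88), and Pax8 was most like Emx2 (0.88), Gipc2 (0.86) and Igsf5 (0.86). Lhx1 was most like Emx1 (0.93), Calb1 (0.83), which is itself a gate marker, and Pgam2 (0.81). Pou3f3 was most like Nudt4 (0.93), Sim1 (0.93) and Cdkl1 (0.92). Osr2 was most like Glis1, Eddm3b and Clip4 (0.81 each), and Foxc1 was most like Hoxc6 (0.81), Robo2 (0.79) and Tgfbr3 (0.79). Npnt was most like Wasl (0.81), Tbc1d1 (0.74) and F11r (0.74), and for Sall1 the genes most alike included Pkp4 (0.81) and 2410066E13Rik (0.74). Among the members themselves Pax2 and Pax8 were the most alike (0.83) and Lhx1 and Foxc1 the least (-0.52).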

How the data were processed

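The series is Drop-seq of kidney cortex cells with 3' libraries made by Nextera XT, per the labels' protocols. Bowtie2 2.2.7 and the mm10 genome are named, with no role, per the submitters' processing notes. The authors deposited 1 table of whole-number counts per library, read here as UMI counts, with genes in rows and barcodes in columns, and the strand used in counting is not given in the sources used here.

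A barcode was kept as a cell when it reached 500 UMIs and 500 genes with no more than 50% of its UMIs mitochondrial, and the gene minimum removed 5362 and 5424 barcodes on day 11. A class needed at least 2 UMIs over its markers, injured tubule went before proximal, and otherwise the highest class won if it had at least 3 times the next. Barcodes with markers of several classes and no winner by these rules were left out as possible doublets, and no doublet caller was run. Counts were summed per library over all tubule cells (6 classes), proximal cells or distal cells (thick limb and distal convoluted), or per library and class with at least 20 cells. Sums were tested with edgeR 4.0.16 in R 4.3.3 (TMM, filterByExpr, quasi-likelihood F test, Benjamini-Hochberg adjustment, threshold 0.05), and the SE is the log2 difference divided by the square root of F. Poisson 95% intervals and the floor of 3 counts cover counting error only. All members are named, with the genes of the development list that passed and had the largest differences, and the 3 genes most alike to each member, except for some items that are not reported here. The members and lists were chosen with earlier results of these data known. The fit was tested on simulated data.

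Alternatives were DESeq2 1.42.0, no filter on low counts, library totals without TMM, a gate at 3 UMIs, at most 25% mitochondrial UMIs, only the 2 groups compared, a replicate block and leaving out each library.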

Additional observations from a re-analysis of the deposited data

Results flagged for a closer look

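Npnt and Pax8 stood out because their day 14 against day 7 difference was not the same in proximal and distal cells by a test of the difference itself. The interaction, proximal minus distal, was -1.0 log2 for Npnt (SE 0.23, edgeR adjusted p = 0.00196) and 1.03 log2 for Pax8 (SE 0.28, edgeR adjusted p = 0.00904). Both day 14 libraries were below both day 7 libraries in proximal cells for Npnt (53.9 and 88.9 scaled CPM against 282 and 148) and in distal cells for Pax8 (31.0 and 33.7 against 58.2 and 69.5). DESeq2 called neither (adjusted p = 0.119 and 0.477), and the Pax8 call was lost in 3 of 10 leave-one-out fits (0.68 to 1.22). The distal sum held 23.0% and 27.0% distal convoluted cells on day 7 and 49.8% and 41.9% on day 14, and the part of this shift was not tested. Within the thick limb gate Npnt was 76.5 and 33.3 on day 7 and 2.93 and 6.67 on day 14 (class scaling). Within the distal convoluted gate it was 223 and 186 and then 129 and 150. On day 7 each thick limb value lay below the leukocyte value of the same library (0 to 101 over all libraries). The part of that background level in the thick limb difference was not tested.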

How the results depend on the processing

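Results for single members were counted per member, comparison and refit, so many of them come from the same refit and are not independent. They kept their direction and side of the threshold in 815 results of leave-one-out refits and 420 of the other settings. The call was lost in 85 and 37 results and gained in 2 and 12, and the sign changed in 2 and 2. The changed signs were on day 7 against the control in tubule cells: Osr2 from -0.12 (without day 7 replicate 2) to 0.75 (without replicate 1; 0.46 with both), Pou3f3 from -0.56 (without replicate 1) to 0.084 (without replicate 2) and 0.61 with library totals (-0.21 with TMM and both), and Sall1 0.33 with library totals (-0.48). None of these passed the test in the main design, and the cause was not tested.

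The number of members called moved by more than 1.5 times, or from or to 0, as follows. Shares of all genes are not given beside these counts or beside those of the leave-one-out fits. Neither kind of count is read as a result about the members. With DESeq2 it was 0 for day 11 and 1 for day 14 against the control in tubule cells, 3 for day 11 against day 7 there and in proximal cells, 0 for injured tubule and 3 for podocytes against proximal cells, and 0 for the interaction. Without a filter it was 2 (day 11) and 4 (day 14) against the control in tubule cells, 3 for day 14 against the control in proximal cells and 4 for injured tubule cells. With library totals it was 3 for day 11 against day 7 in proximal cells and 7 for day 14 against day 7 in distal cells. With a gate at 3 UMIs it was 1 for day 14 against the control in tubule cells. With at most 25% mitochondrial UMIs it was 0 for day 11 and 1 for day 14 against the control in tubule cells and 3 for day 11 against day 7 in proximal cells. With only the 2 groups compared it was 3 and 5 for day 11 and day 14 against the control in tubule cells, 3 for day 14 against the control and 3 for day 11 against day 7 in proximal cells, and 1 for day 14 against the control in distal cells. With the replicate block it was 3 for day 11 against day 7 in proximal cells, where Lhx1 (0.82) and Pou3f3 (0.83) lost their calls. The labels give same-numbered libraries of days 7, 11 and 14 nothing in common but the number. Deviations of same-numbered libraries correlated by 0.033, -0.043 and -0.035 over 16022 genes, which cannot tell whether they share an animal or a run.

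When each library was left out in turn, the number called ran from 0 to 2 (day 11 against the control), 0 to 3 (day 14 against the control) and 4 to 5 (day 11 against day 7) in tubule cells. It ran from 2 to 5 for day 7 against the control, 0 to 2 for day 14 against the control and 2 to 5 for day 11 against day 7 in proximal cells, and 0 to 1 and 4 to 5 for day 14 against the control and day 7 in distal cells. It ran from 0 to 2 for injured tubule, 5 to 8 for principal, 6 to 8 for stromal and 3 to 5 for podocytes against proximal cells, and 1 to 2 for the interaction. Day 7 proximal sums rest on 204 and 328 cells, which limits their depth.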

Other observations

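The podocyte gate on day 7 held UMIs of tubule members. Pou3f3 had 24 UMIs in 8 of 27 barcodes of replicate 1 and 26 UMIs in 8 of 47 barcodes of replicate 2, Pax8 had 14 UMIs in 6 and 15 in 7 barcodes, and Osr2 had 1 UMI in replicate 1 and 13 UMIs in 6 barcodes of replicate 2. In scaled CPM, Pou3f3 was 290 and 155 there, against 0 to 54.0 in the other podocyte sums. In day 11 replicate 1, Osr2 had 17 UMIs in 4 distal convoluted barcodes, 14 of them in 1 barcode, and 15 UMIs in 4 thick limb barcodes, 9 of them in 1. No cause of these values was tested.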
